A study of Mus musculus with 8 samples.

Results

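The G1/S replication-licensing cells described here are 2334 of 23337 single-guide OT-I T cells from KPC_OVA pancreatic tumours. They were selected on 8 genes read together, Mcm2, Mcm3, Mcm4, Mcm5, Ung, Cdc6, Gins2 and Dtl, by the share of a cell's gene UMIs (unique molecular identifiers, 1 per captured transcript) that these genes held. The top 10% of cells of each library were taken, from barcodes with exactly 1 called guide and at most 10% of UMIs in mitochondrial genes. This gave 255 of 2552 cells in anti-PD-1 replicate 1, 262 of 2616 in replicate 2, 653 of 6530 in replicate 3 and 1164 of 11639 in the IgG library. Because the share of cells was fixed at 10% by the rule, the number of such cells is no measurement, and the differences between them and the other cells are described without a test.

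The T cells came from OT-I mice that carried a Cas9 knock-in, so that every cell recognised an ovalbumin peptide and expressed Cas9. They were transduced with a lentiviral CRISPR library against metabolic genes that also marks cells with CD90.1, and were injected into Rosa26-Cas9 recipients with orthotopic tumours of KPC_OVA, a mouse pancreatic ductal adenocarcinoma line that expresses ovalbumin. Anti-PD-1 or control IgG was started on the day of transfer, and CD90.1+ OT-I cells were sorted from the primary tumour 7 days later. The 4 gene expression libraries were 3 of anti-PD-1 and 1 of IgG, each with its own guide library, and all groups shared the Cas9 allele, the guide library, the T cell receptor and the tumour line. Anti-PD-1 replicates 1 and 2 share a sample name in the labels, which do not say how many mice each library holds, so p-values over libraries measure the spread between these libraries only, which may be technical.

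Before a cell copies its DNA it licenses origins of replication. The origin recognition complex, with Cdc6 and Cdt1, loads the ring of Mcm2 to Mcm7 proteins onto DNA in G1, and the ring becomes the replicative helicase at the onset of S phase when Cdc45 and the GINS proteins join it. Many of these genes are transcribed by E2F factors once cyclin-dependent kinases have inactivated the retinoblastoma proteins, and in CD8+ T cells this step opens the rapid divisions that follow recognition of antigen. Of the other genes of the rule, Ung encodes the uracil DNA glycosylase that removes uracil from DNA, Gins2 a GINS subunit, and Dtl the adaptor through which the CRL4 ubiquitin ligase degrades Cdt1 during S phase.

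Several promoters of these genes carry the E2F letters. RefSeq promoters of GRCm38.p6, from 250 bases before to 50 after the start of a transcript, were searched on both strands for the 8 letters TTTGGCGC, TTTCGCGC, TTTGCCGC or TTTCCCGC, which can overlap each other on opposite strands. Of the 8 rule genes, 6 had a promoter in the table and 4 of the 6 held a match, against 2.60% of the 27025 genes with any promoter. Among genes that passed the level filter given below, the share was higher, 320 of 5649 (5.66%). The windows below show the match in capitals with its flanks, 5′ to 3′ on the strand of the gene, to let the shared letters be compared.
Mcm3, chr1:20820275-20820304, minus strand: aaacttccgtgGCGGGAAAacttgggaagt
Mcm5, chr8:75109345-75109374, plus strand: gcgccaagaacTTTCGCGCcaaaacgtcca
Cdc6, chr11:98908002-98908031, plus strand: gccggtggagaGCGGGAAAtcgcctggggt
Dtl, chr1:191575534-191575563, minus strand: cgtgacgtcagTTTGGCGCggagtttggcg
Mcm7, chr5:138171849-138171878, minus strand: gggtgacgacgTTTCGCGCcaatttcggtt
Orc1, chr4:108579416-108579445, plus strand: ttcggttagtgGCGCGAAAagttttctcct
Mcm7 and Orc1 were not part of the rule and are shown as examples, chosen after the search, of genes higher in the licensing cells that held a match. E2f1, Mcm10, Chek1, Chaf1a and Tcf19, which were also higher, had no match in these windows. Mcm3, Mcm5 and the Mcm7 promoter shown each held 2 matches, of which 1 is in capitals, and those of Mcm5 overlap on opposite strands. A second promoter listed for Mcm7 held none. No match was found in the Mcm2 and Ung promoters, and Mcm4 and Gins2 had no entry. A match is a description of the letters and not of a bound site.

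The libraries differed in depth, which bears on how well single cells can be placed. Gene UMIs summed over all barcodes ranged from 142945121 to 155974184 per library, spread over 9579 to 23269 barcodes, and licensing cells had a median of 19639, 19804.5 and 15816 UMIs under anti-PD-1 and 7597 in IgG. In every library this was above the median of the other cells, by 1.19 to 1.37 times. The rule genes contributed a median of 28, 28, 23 and 12 UMIs to a licensing cell, and 25 licensing cells of 2334, 22 of them in IgG, rested on fewer than 3 such UMIs.

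The threshold lay at a similar value in the 4 libraries. The lowest licensing cell had 1160, 1122 and 1154 CPM (the share of the cell's gene UMIs scaled as is usual for sequencing depth, here for the 8 genes together) under anti-PD-1 and 1187 in the IgG library, and the highest of the other cells had 1159, 1122, 1151 and 1187, so the cells just inside and just outside it had nearly the same value. The median was 1351 to 1491 CPM in licensing cells and 135 to 236 in the other cells, and 17.3% to 33.5% of all cells held no UMI of the 8 genes. When every cell was thinned to 2000 UMIs before ranking, 48.8% to 58.9% of the cells then chosen were among the original ones. With those cells 160 genes were higher by the rule given below, 130 of them among the 221 called without thinning, and 23 were lower, 11 of them among the 27 called without it. The same barcode occurred in pairs of libraries 30 to 93 times, and 3 to 20 times among the cells retained. No doublet caller was run, and cells with more than 1 called guide were left out by the rule.

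All 8 rule genes were higher in the licensing cells of every library. The rule requires this of their sum and not of each gene, but each gene took part in choosing the cells. Levels are given as CPM, the UMIs of a gene relative to all gene UMIs of the same group of cells, and folds as log2 ratios of these levels within a library after 1 CPM was added, with the mean ± SD over the 4 libraries. Cdc6, the loader of the Mcm ring, stood at 66.2, 62.5 and 91.1 CPM in the licensing cells of anti-PD-1 replicates 1, 2 and 3 and at 93.6 CPM in those of IgG, against 11.9, 11.2, 10.8 and 12.7 in the other cells. Its mean log2 fold of 2.63 ± 0.29 was the largest among the rule genes.

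Ung came next, at 74.3, 79.9, 92.3 and 101 CPM in the licensing cells and 19.9, 16.2, 12.8 and 16.2 in the other cells, a mean log2 fold of 2.35 ± 0.40. The helicase subunits had smaller folds, with 1.81 ± 0.24 for Mcm2, 1.90 ± 0.21 for Mcm3, 1.91 ± 0.18 for Mcm4 and 1.72 ± 0.23 for Mcm5. Gins2 had 1.80 ± 0.21 and Dtl 1.96 ± 0.27. The 4 groups of licensing cells did not overlap with the 4 of other cells for any of the 8 genes. Over all 7024 genes at 10 or more CPM, 1270 (18.1%) lay wholly above and 444 (6.32%) wholly below, and nothing is read from the overlap of genes that chose the cells. The level of Mcm5 in the other cells ran from 56.7 CPM in anti-PD-1 replicate 3 to 91.0 in replicate 1.

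**Figure D1:**
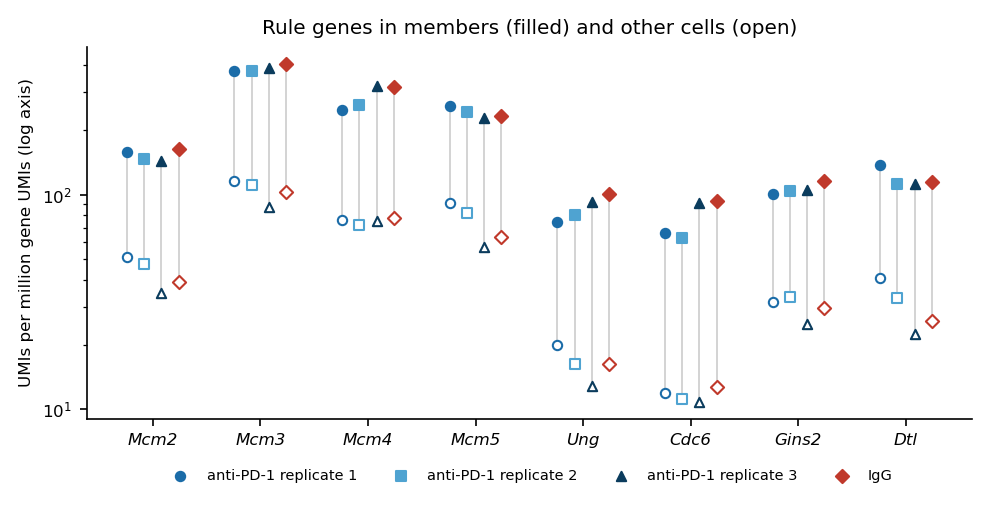
Level of the 8 rule genes in CPM on a log axis, in the licensing cells (filled) and the other cells (open) of each library, joined by a grey line. The filled symbols lie above the open ones throughout, with Cdc6 between 62.5 and 93.6 against 10.8 to 12.7.

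A gene's own part in choosing the cells can be taken out by ranking cells on the remaining 7 genes. Between 80% and 95.1% of the licensing cells were then chosen again. Each left-out gene was still higher in cells it had not helped to choose, from 2.24-fold for Mcm5 in anti-PD-1 replicate 1 to 6.89-fold for Cdc6 in replicate 3. The lowest fold over the 4 libraries was 4.41 for Cdc6, 2.98 for Ung and between 2.24 and 2.66 for the other 6 genes. Each rule gene was thus higher, in all 4 libraries, in cells chosen by the other 7.

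Ranked by the rule-gene share, the cells showed 3 courses among other cycle genes. Other origin licensing genes, a sum over Mcm6, Mcm7, the Orc genes, Cdt1, Gmnn and Mcmbp, went from 319 ± 25.4 CPM (SD, n = 4) at ranks 0% to 50% to 703 ± 104 at 50% to 80%, 1057 ± 72.8 at 80% to 90% and 1292 ± 69.0 in the top 5%. Mitosis genes were highest in the middle of the ranking, with 3664 ± 281 CPM at 50% to 80%, and stood at 1706 ± 238 in the lowest bin and 1828 ± 89.9 in the top 5%. Replication histones, which are made while DNA is copied, had their highest mean, 3242 ± 1166 CPM, at 80% to 90% and stood at 2337 ± 582 CPM in the top 5%.

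The histones differed between libraries, and anti-PD-1 replicate 3 and IgG stood above replicates 1 and 2 in all bins from 50% up. Their highest bin was 80% to 90% in replicate 3 and IgG, but 90% to 95% in replicate 1 with 2689 CPM and 50% to 80% in replicate 2 with 2432 CPM. In all 4 libraries the top 5% of cells were lower in both histone and mitosis transcripts than the cells at 90% to 95%. The mitosis list differed least between libraries at the top, where its levels ran from 1721 to 1921 CPM.

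**Figure D2:**
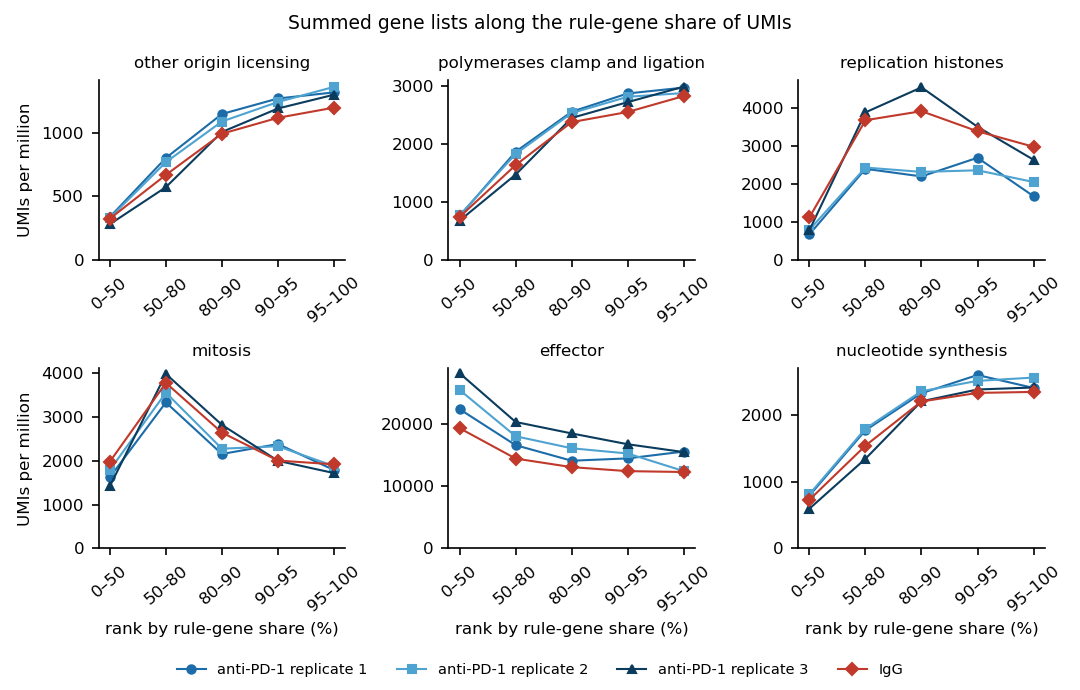
Summed level of 6 gene lists, in CPM, over bins of cells ranked within each library by the rule-gene share, with 1 line per library. Licensing, polymerase and nucleotide genes are highest at 90% to 100%, mitosis genes at 50% to 80%, and effector genes at 0% to 50%.

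Licensing cells, 10% of all cells, were below that share among cells high in mitosis genes and above it among those high in replication histones. Among the top 10% of cells by mitosis genes, chosen within each library, there were 69 licensing cells, 2.96% of 2334, and 3.92%, 3.82%, 3.37% and 2.32% in the 4 libraries. Among the top 10% by replication histones there were 329, or 14.1%. The histone-high and mitosis-high cells shared 1224 cells, 52.4% of each. Polymerase, clamp and ligation genes stood at 2815 ± 100 CPM in the licensing cells, 2451 ± 68.5 in the histone-high cells, 1783 ± 66.4 in the mitosis-high cells and 1372 ± 102 in all cells but the licensing ones.

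Over all genes, 221 of 7024 genes at 10 or more CPM (3.15%) were at least 1.5-fold higher in the licensing cells of 4 of 4 libraries, and 27 (0.384%) were at least 1.5-fold lower. The same cells gave the rule and these counts, so the counts are read as a description of what accompanied the rule genes. The median log2 fold of all 7024 genes was 0.03. Of 115 genes at this level in 7 lists of replication and G1/S control genes, rule genes excluded, 91 were higher and 0 lower, and their median log2 fold was 1.05.

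The E2F and cyclin list had 11 of 17 genes higher and 0 lower. Ccne2, which encodes cyclin E2, an activator of Cdk2 at the entry to S phase, was at 35.5, 38.3, 51.1 and 39.9 CPM in the licensing cells and at 9.14, 9.53, 10.9 and 11.6 in the other cells. E2f1, an activating E2F factor, was at 55.4, 53.9, 53.4 and 50.1 against 16.6, 15.1, 11.3 and 12.7. The licensing cells were thus far above the other cells for both genes, with mean log2 folds of 1.89 ± 0.18 and 1.88 ± 0.20.

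The repressor members E2f7 and E2f8 were higher as well, by 1.40 ± 0.14 and 1.29 ± 0.15 on the log2 scale. So were Cdc25a, the phosphatase that activates Cdk2, with 1.17 ± 0.14, and Ccne1, encoding cyclin E1, with 1.15 ± 0.16. Skp2, a ubiquitin ligase subunit that removes Cdkn1b, had 1.10 ± 0.11. None of the 7 tested CDK inhibitor and antiproliferative genes was higher, beside 3.15% of all genes. Cdkn2d, which encodes an inhibitor of Cdk4 and Cdk6, was lower, at 27.0, 28.2, 38.2 and 35.1 CPM in the licensing cells against 48.4, 54.2, 74.8 and 73.5 CPM. Its mean log2 fold was -0.93 ± 0.09, and it was among the 6.32% of genes that lay wholly below. Btg1 at -0.61 ± 0.10 and Cdkn1b at -0.48 ± 0.14 did not pass 1.5-fold in 4 of 4 libraries.

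Origin licensing genes outside the rule were higher in 7 of 10 cases. Orc1, the regulated subunit of the origin recognition complex, was at 16.8, 15.3, 18.03 and 15.6 CPM in the licensing cells and 5.33, 5.78, 3.80 and 4.32 in the other cells, with a mean log2 fold of 1.60 ± 0.30. Mcm7 had 1.53 ± 0.17, Orc6 1.29 ± 0.22 and Mcm6 1.06 ± 0.15. The opposing pair Gmnn, whose product geminin blocks relicensing, and Cdt1, its target, were both higher, by 1.22 ± 0.17 and 1.11 ± 0.14.

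In the list of origin firing and helicase genes 13 of 14 were higher. Mcm10, which helps to activate the helicase, was at 38.2, 42.5, 43.0 and 39.3 CPM against 13.4, 10.9, 9.76 and 11.6, a mean log2 fold of 1.76 ± 0.25. Clspn, which encodes the fork checkpoint adaptor claspin, had 1.62 ± 0.16, and the helicase partners Gins1 and Cdc45 had 1.46 ± 0.25 and 1.45 ± 0.22. These 4 genes, picked for their folds, were among the 18.1% of genes whose groups did not overlap.

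Polymerase, clamp and ligation genes were higher in 22 of 25 cases. The clamp loader gene Rfc3 had the largest mean log2 fold of the list, 1.504 ± 0.19, followed by Pole, the leading-strand polymerase, with 1.41 ± 0.10 and the primase gene Prim1 with 1.39 ± 0.18. Lig1, the ligase that joins Okazaki fragments, had 1.32 ± 0.08. Its level was close in all libraries, at 292, 302, 311 and 286 CPM in the licensing cells and 121, 120, 114 and 118 in the other cells.

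Nucleotide synthesis genes divided. Rrm2, a ribonucleotide reductase subunit, was at 188, 201, 211 and 189 CPM in the licensing cells against 79.1, 77.9, 77.3 and 80.6 in the other cells. Its mean log2 fold was 1.31 ± 0.10, beside 1.15 ± 0.14 for the thymidine kinase gene Tk1 and 1.02 ± 0.13 for Tyms, which encodes thymidylate synthase. In all, 11 of 17 genes were higher, and the 6 that did not pass had mean log2 folds down to 0.45.

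Of the genes for chromatin at the fork, 11 of 14 were higher. They included Uhrf1, which brings the maintenance methyltransferase to copied DNA, with 1.61 ± 0.16, Chaf1a, a subunit of the histone chaperone CAF-1, with 1.60 ± 0.26, Hells with 1.52 ± 0.17 and Dnmt1 with 1.19 ± 0.12. Among mismatch repair and fork protection genes 16 of 18 were higher, led by Chek1, the S phase checkpoint kinase, with 1.73 ± 0.22, Brca1 with 1.64 ± 0.08 and the exonuclease gene Exo1 with 1.60 ± 0.32. Brca1 stood at 50.5, 38.0, 41.5 and 43.0 CPM in the licensing cells and at 15.0, 12.3, 11.8 and 13.5 in the other cells.

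Replication histones behaved differently from these lists, with 2 of 27 higher and a median log2 fold of 0.20, beside 3.15% higher and 0.03 over all genes. Hist1h3a and Hist1h1a were the pair that passed, with 1.09 ± 0.01 and 1.03 ± 0.15. The levels of Hist1h1a were 13.8 and 16.0 CPM in the licensing cells of anti-PD-1 replicates 1 and 2 but 63.3 and 70.6 in replicate 3 and IgG, and 7.00, 7.98, 27.1 and 31.8 in the other cells. Its fold was nevertheless similar in the 4 libraries. Members of this family are near-identical, so reads may be divided among them.

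**Figure D3:**
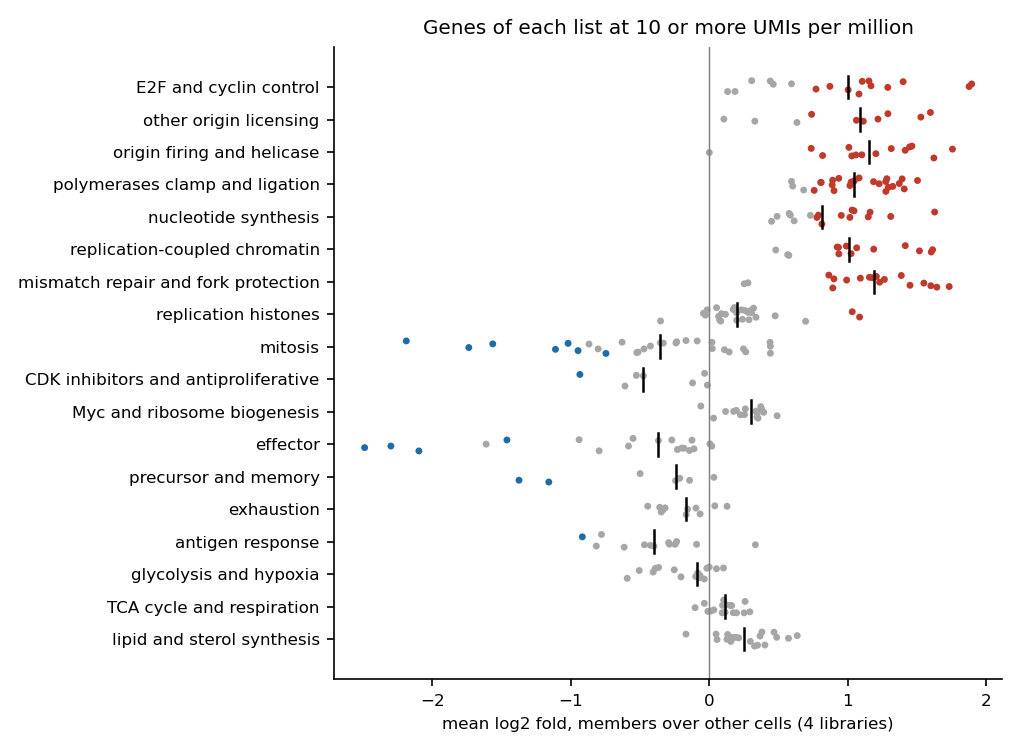
Mean log2 fold of licensing cells over other cells for each gene at 10 or more CPM in 18 lists, with red for higher and blue for lower in 4 of 4 libraries at 1.5-fold, grey for neither, and a black bar at the list's median. The 7 replication and G1/S lists lie to the right of 0, with medians from 0.81 to 1.19, and mitosis has a median of -0.35.

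Outside the lists, the 12 genes with the largest positive folds were led by Dscc1. This gene, which encodes a subunit of the loader that works in sister chromatid cohesion, was at 40.5, 40.1, 45.1 and 39.7 CPM in the licensing cells against 11.9, 10.7, 9.57 and 11.2, with a mean log2 fold of 1.84 ± 0.20. Tcf19 had 1.62 ± 0.20, Atad5, which unloads the clamp, 1.62 ± 0.17, and Mybl2, a cell cycle transcription factor, 1.53 ± 0.20. Cgas, the cytosolic DNA sensor, had 1.57 ± 0.17, from 18.7, 16.3, 34.5 and 27.3 CPM against 5.72, 4.63, 9.58 and 10.2.

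Cdca7, a partner of Hells, followed with 1.52 ± 0.36, Zgrf1 with 1.478 ± 0.05, Cenps with 1.40 ± 0.21, Aunip with 1.39 ± 0.11 and Psmc3ip with 1.38 ± 0.33. Ercc6l at 1.34 ± 0.15 and Wdr76 at 1.33 ± 0.10 closed the 12. All 12 were at least 1.5-fold higher in 4 of 4 libraries. Of the 213 genes that were higher and not in the rule, 168 had a promoter in the RefSeq table and 51 of these (30.4%) held 1 of the 4 E2F words, as did 320 of 5649 genes tested (5.66%). None of the 23 promoters of lower genes held one.

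The genes that were lower included late cycle genes. Mitosis genes were lower in 7 of 29 cases and higher in 0, beside 0.384% lower and 3.15% higher of all genes. Ube2c, which gives the anaphase-promoting complex its ubiquitin, was at 48.4, 57.4, 47.0 and 51.1 CPM in the licensing cells and at 199, 236, 246 and 265 in the other cells. The fall was the largest of the list, at -2.19 ± 0.19, and the groups lay far apart.

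Cenpf fell by 1.74 on the log2 scale (SD 0.25), Cdc20, an activator of the anaphase-promoting complex, by 1.56 (SD 0.10), Hmmr by 1.11 (SD 0.23), Ccnb2 by 1.02 (SD 0.22) and Ccnb1, encoding cyclin B1, by 0.95 (SD 0.10). The list was not uniform, since 9 of its 29 genes had folds above 0. Top2a, which acts from S phase onwards, had 0.44 ± 0.11 and Mki67 0.26 ± 0.23. Both were above 0 in 4 of 4 libraries, while Ube2c, Cdc20 and the B cyclins, which act at mitosis, were lower.

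Outside the lists, Kdm5b, a histone H3 lysine demethylase, had the largest fall. It was at 6.43, 8.17, 14.2 and 15.8 CPM in the licensing cells and at 28.9, 30.5, 52.2 and 51.1 in the other cells, with a mean log2 fold of -1.81 ± 0.16. Cdkn3 at -1.13 ± 0.11 and Rgcc at -1.09 ± 0.15 followed. Kdm7a at -0.88 ± 0.21, Crtam, which encodes an adhesion receptor of activated T cells, at -0.87 ± 0.22, Mxd4, an antagonist of Myc, at -0.86 ± 0.15, Kdm6b at -0.80 ± 0.19 and Gm26740 at -0.78 ± 0.12 also passed in 4 of 4 libraries. Tespa1 and Spp1 belonged to the 10 largest negative folds, at -0.998 ± 0.32 and -0.99 ± 0.46, but were not 1.5-fold lower in every library.

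Among genes of T cell function, the effector list summed to 14363 ± 1612 CPM in the licensing cells. It was lower still in the histone-high cells, at 13259 ± 1683, and in the mitosis-high cells, at 12374 ± 1335. All cells but the licensing ones stood at 20060 ± 3066, so the lower sum was not particular to licensing cells. Of the 19 effector genes 4 were lower and 0 higher, beside 0.384% lower and 3.15% higher of all genes. The 4 were Gzmd, Gzme and Gzmf, granzymes whose genes lie beside each other, and Xcl1, a chemokine that attracts dendritic cells. Gzmf was at 14.2, 3.996, 33.2 and 59.4 CPM in the licensing cells and at 37.6, 71.7, 190 and 97.0 in the other cells, and its fold of -2.10 ± 1.39 varied widely. Gzmd had -2.49 ± 1.61 and Gzme -2.30 ± 1.07, folds that depend on the 1 CPM added, since Gzmd came to 3 and 7 UMIs in the licensing cells of anti-PD-1 replicates 1 and 2. Their transcripts sat in few cells, since the top 5% of the other cells held 99.6% to 100% of the Gzmf UMIs and a single cell held 15.4% to 49.1% of them. In the licensing cells a single cell held 84% of the Gzmf UMIs in anti-PD-1 replicate 1, 22.7% in replicate 2, 62.9% in replicate 3 and 36.9% in IgG. A single licensing cell likewise held 78.7% and 80.8% of the Gzmd UMIs in replicate 3 and IgG, so these levels rest largely on single cells.

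Xcl1 was at 552, 881, 738 and 1244 CPM in the licensing cells and at 2347, 3019, 1661 and 2193 in the other cells. Its mean log2 fold was -1.46 ± 0.57. The main cytotoxic genes did not follow, with Gzmb at 0.00 ± 0.26, Gzma at -0.13 ± 0.32 and Prf1 at -0.27 ± 0.25. Ifng had -0.94 ± 0.66, Ccl4 -0.80 ± 0.20 and Ccl3 -0.58 ± 0.22, and none of the 3 was called.

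Of the precursor and memory genes, Tcf7, which encodes the factor that maintains stem-like T cells, and Ccr7, a lymph node homing receptor, were lower, 2 of 7 genes in the list. Over all genes 0.384% were lower and 3.15% higher. Tcf7 was at 4.73, 5.81, 3.68 and 9.98 CPM in the licensing cells and 15.1, 13.4, 13.6 and 25.7 in the other cells, a mean log2 fold of -1.37 ± 0.24, and Ccr7 had -1.16 ± 0.28. Slamf6 at -0.50 ± 0.13 was not called. No exhaustion gene of 11 passed in either direction, and Pdcd1, which encodes PD-1, stood at 262, 254, 311 and 272 CPM against 274, 274, 344 and 284. Its mean log2 fold was -0.10 ± 0.04. Of the other inhibitory receptors Havcr2 had -0.17 ± 0.09 and Lag3 -0.35 ± 0.12, both below 0 in 4 of 4 libraries, and 9 of the 11 genes had a mean below 0. The exhaustion list summed to 1934 CPM in the licensing cells, 1784 in the histone-high cells and 1859 in the mitosis-high cells. All cells but the licensing ones stood at 2236.

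Beside 0.384% lower and 3.15% higher of all genes, 1 of 13 genes of the antigen response was lower and 0 higher. This was Egr3 at -0.92 ± 0.42, while Nr4a1 at -0.78 ± 0.39 and Nr4a3 at -0.82 ± 0.40 missed 1.5-fold in some libraries. Tfrc, the transferrin receptor, stood apart with 0.33 ± 0.15. Of 5 interferon response genes Irf7 was lower, at -0.76 ± 0.07, and 0 were higher.

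The folds of the growth and metabolism lists were small. No gene was called among 16 for Myc and ribosome biogenesis, 16 for glycolysis and hypoxia, 17 for the TCA cycle and respiration and 20 for lipid and sterol synthesis. With 3.15% of all genes higher and 0.384% lower, 0 in lists of this size says little. The median log2 folds of these lists, in this order, were 0.30, -0.09, 0.11 and 0.25, beside 0.03 over all genes. Folds were above 0 for 15, 2, 14 and 19 of their genes, and for 3966 of all 7024. In the lipid list Idi1, an isoprenoid enzyme, had 0.63 ± 0.24 and Fdps, which makes farnesyl diphosphate, 0.49 ± 0.05. Nop56 led the ribosome genes with 0.49 ± 0.24, and the glucose transporter gene Slc2a3 was lowest among the glycolysis genes with -0.59 ± 0.17.

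T cell identity genes were present in both groups. The 8 genes of that list, from Cd3d to Cd8a and Trac, summed to 6258 to 6746 CPM in the licensing cells and 7182 to 7878 in the other cells, and none was called. Marker genes of other cell types were low. Summed as CPM in the licensing cells, they reached 7.37 to 11.04 for 6 B and plasma cell genes, 4.57 to 6.35 for 9 myeloid genes, 11.99 to 15.5 for 6 tumour epithelial genes, 4.97 to 6.90 for 6 stromal and endothelial genes, 0 to 1.06 for 4 CD4 and NK genes and 0.756 to 3.93 for 4 acinar genes.

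Between 1 and 7 genes of each of these lists were at 0 in the licensing cells of a library. The other cells of anti-PD-1 replicate 3 reached 162 CPM for B and plasma cell genes, 94.4% of it in a single cell. Only 47 of 23337 cells, 6 of them licensing cells, held 10 or more UMIs of these markers, and without them 218 genes were higher and 25 lower, an alternative chosen after seeing the data.

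Whether anti-PD-1 changed the level of licensing transcripts was asked over all single-guide cells, since the rule fixes the share of licensing cells. The 8 genes together stood at 545, 518 and 466 CPM under anti-PD-1, and IgG stood at 501 CPM, which lay within the range of the treated libraries. The difference was 8.72 CPM against an SD of 40.2 between the anti-PD-1 libraries (n = 3), with a two-sided exact permutation p of 1. With 3 libraries against 1 this test cannot give a p under 0.25.

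Inside the licensing cells, the genes were compared between treatments with edgeR's quasi-likelihood test on counts summed per library. Of 10827 genes tested 0 passed an adjusted p of 0.05 (0%). An unadjusted p under 0.05 was found for 345 genes by edgeR and 152 by DESeq2, which called 1. This fit takes the spread of the IgG library to be that of the other 3. Tnfsf8, which encodes the CD30 ligand, had the smallest p, at 0.945, 0.726 and 0.736 CPM under anti-PD-1 against 8.82 CPM for IgG, with a log2 fold change of -3.46 ± 0.38 (SE) and an adjusted p of 0.235 by edgeR.

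The next genes had adjusted p-values of 0.996 by the same test and are given as values. Higher in the 3 anti-PD-1 libraries than in IgG were Mt3, a metallothionein, at 49.2, 47.6 and 42.1 against 22.1 CPM, Ccl3 at 1357, 1204 and 879 against 517, Gpr65 at 119, 101 and 102 against 63.4, S100a4 at 926, 973 and 756 against 502, and Esm1 at 3.59, 3.09 and 2.21 against 0.212. Lower were Tespa1, Cd81, Id3 and Tbc1d4, of which Id3, a factor of memory precursors, was at 0.945, 1.09 and 1.75 against 6.48. More genes were called without anti-PD-1 replicate 3. A term for the library pairs (anti-PD-1 replicates 1 and 2 against replicate 3 and IgG) also gave more calls, so the count of 0 depended on these settings. Without replicate 3 the spread came from replicates 1 and 2 alone, which share a sample name, so it may be technical.

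A second fit, in which IgG is 1 library and its spread is taken from that of the anti-PD-1 libraries, asked whether the difference between treatments in licensing cells differed from that in the other cells of the same libraries. It called 3 of 13169 genes (0.0228%), all with larger falls from other to licensing cells under anti-PD-1. Gzmc, a granzyme, was at 6.05, 11.3 and 59.0 CPM in licensing cells under anti-PD-1 against 30.3, 51.7 and 184 in their other cells, and at 107 against 159 in IgG. The interaction was -1.27 ± 0.15 (SE) on the log2 scale, with an adjusted p of 8.3e-04 by edgeR, and the direction was the same in 3 of 3 anti-PD-1 libraries.

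Tnfsf8 had -2.18 ± 0.33 and an adjusted p of 0.0165 by edgeR, and Gzmf had -1.82 ± 0.30 and 0.0271. The calls rested on few cells and on 1 IgG library. Every anti-PD-1 library was set against that same IgG library, so their shared direction for Gzmc was no replication. Gzmc UMIs were found in 19, 21, 76 and 116 licensing cells, and the top 5% of all licensing cells of a library held 81.2% to 94.3% of its UMIs. A single IgG licensing cell held 27.003% of them, and without it, a comparison added after the values were seen, the IgG level was 78.5 CPM and its log2 fold over the other cells -1.01 in place of -0.57. Removing the highest licensing cell of each anti-PD-1 library in the same way gave -2.45, -2.60 and -1.85 for Gzmc. For Gzmf the same step moved the fold from -1.35, -3.86 and -2.48 to -3.56, -4.15 and -3.84 under anti-PD-1 and from -0.70 to -1.35 in IgG. In IgG it also moved Gzmd from -0.66 to -2.80 and Gzme from -0.90 to -2.65. Tnfsf8 came to 5, 4 and 8 UMIs in the licensing cells under anti-PD-1 and 83 in IgG.

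DESeq2 called 0 genes in this comparison, with 25 at an unadjusted p under 0.05, and taking the top 5% of cells brought Gzmc to 0.09 and Gzmf to -0.41 and ended both calls. Each of the 3 genes was called in 7 of 12 alternatives. Dapl1 at -2.20 ± 0.44, Hspa1a at -1.72 ± 0.35, H2-Aa at 1.64 ± 0.32, Cd74 at 1.01 ± 0.21 and H2-Eb1 at 1.74 ± 0.36 had adjusted p-values of 0.157 by edgeR and were not called. The same holds for C2cd4b at 2.72 ± 0.68 and Mir142hg at 0.80 ± 0.23, with 0.781 and 1. Over the alternatives Dapl1 ran from -2.75 to -0.33 and Hspa1a from -2.59 to -0.19, and H2-Aa, Cd74, H2-Eb1 and Mir142hg changed sign after thinning.

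**Figure D4:**
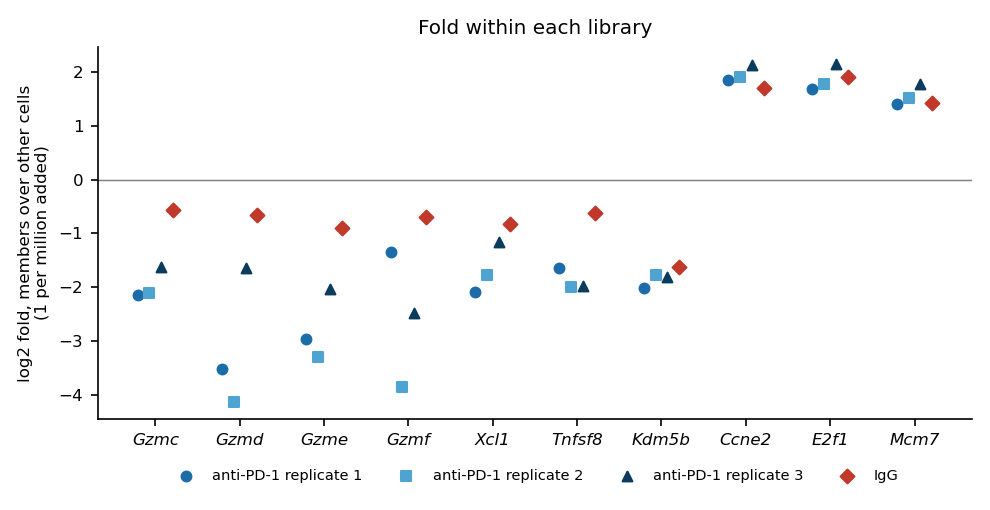
Log2 fold of licensing cells over other cells within each library, after 1 CPM was added, for 5 effector genes, Tnfsf8, Kdm5b and 3 G1/S genes. The granzymes and Tnfsf8 lie closer to 0 in IgG, for example -0.57 for Gzmc, than in the 3 anti-PD-1 libraries, with the IgG values for Gzmc, Gzmd, Gzme and Gzmf moved by a single cell as given above, whereas Kdm5b, Ccne2, E2f1 and Mcm7 lie close together in all 4.

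The guides were not read by the rule, so the cells of a target can be compared between licensing and other cells. Cells were counted per target in each library and tested with edgeR's quasi-likelihood test with the library as a block. Of 84 entries with at least 40 cells, 83 targets and the nontargeting guides together, 0 passed (0%), with 4 at an unadjusted p under 0.05, and DESeq2 called 0. The share of licensing cells among the cells of a target ran from 5.26% to 17.9% with a median of 10.0%, and 42 of the 84 entries were over 10%. Cells with a nontargeting guide stood at 11.5%, 10.0%, 10.2% and 10.96% in the 4 libraries, 292 of 2730 in all (10.7%, exact 95% interval 9.56% to 11.9%). The interval pools cells of all libraries and covers counting error only.

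Elovl1, an elongase of very long-chain fatty acids, had the smallest p among targets above the mean. Licensing cells were 11 of 50 (22%), 8 of 70 (11.4%) and 11 of 70 (15.7%) of its cells under anti-PD-1 and 18 of 105 (17.1%) in IgG. These shares were above 10% in 4 of 4 libraries, as were those of Dpm2, Lhx5 and the nontargeting guides, so this was not particular to Elovl1. The log2 fold of Elovl1 was 0.81 ± 0.28 (SE), with an adjusted p of 0.209 by edgeR. The 3 guides gave 19.4%, 15.3% and 14.1%, each over 98 or 99 cells, and so lay on the same side. Without anti-PD-1 replicate 1 the adjusted p was 0.982, and over all alternatives it ran from 0.132 to 0.998, and the log2 fold from 0.37 to 0.96.

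Pik3cd, the catalytic subunit of a phosphoinositide 3-kinase of lymphocytes, lay at the other end. Licensing cells were 1 of 25 (4%), 1 of 28 (3.57%) and 17 of 213 (7.98%) of its cells under anti-PD-1 and 9 of 238 (3.78%) in IgG, 28 of 504 in all (5.56%, exact 95% interval 3.72% to 7.93%). This interval pools cells of all libraries and covers counting error only, not the spread between libraries. The log2 fold was -0.92 ± 0.31 with an adjusted p of 0.209 by edgeR. Over the alternatives it ran from -1.49, without anti-PD-1 replicate 3, to -0.55 after thinning, and it was -0.58 without the IgG library. With the top 20% of cells as members it was -0.89, with an adjusted p of 0.00321, the only call among the alternatives, whose adjusted p-values ran from 0.00321 to 0.998. All its cells carried the same guide, so no second guide bears on the value.

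Slc5a12, a lactate transporter, was below 10% in 4 of 4 libraries, as were Pik3cd, Aspa and Gpx3. For Slc5a12 licensing cells were 2 of 42, 0 of 36, 5 of 66 and 12 of 138 cells. Of these, 0 of 36 allows a share of up to 8.33% if 3 cells are taken as the limit, and the exact 95% interval reaches 9.74%. The log2 fold of Slc5a12, -0.65 ± 0.38, had an adjusted p of 0.941 by edgeR, and was -1.12 without the IgG library, -0.42 without anti-PD-1 replicate 2 and 0.00317 after thinning. Its guides gave 5.07%, 5.17% and 10.5%. The other targets of small p were Aspa at -0.87 ± 0.43 and Gpx3 at -0.94 ± 0.47 on the lower side, and Dpm2 at 0.74 ± 0.42, Lhx5 at 0.45 ± 0.33 and Slc6a9 at 0.38 ± 0.30 on the higher side, all with adjusted p-values of 0.941. Over the alternatives Aspa ran from -2.04 to -0.14 and Gpx3 from -1.15 to -0.17, both with the lowest value when the IgG library was left out, and Dpm2, Lhx5 and Slc6a9 each changed sign in at least 1. These 5 shares rest on 148 to 308 cells per target, and intervals cover counting error only.

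**Figure D5:**
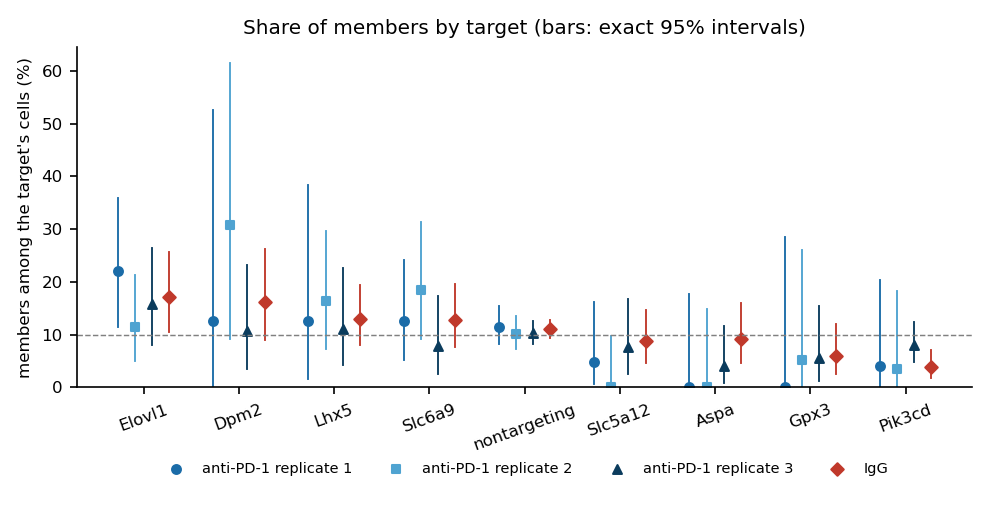
Share of licensing cells among the cells of a target in each library, in percent, with exact 95% binomial intervals and a dashed line at 10%, the share set by the rule. Elovl1 lies above the line in all 4 libraries, between 11.4% and 22%, as do Dpm2, Lhx5 and the nontargeting guides. Pik3cd lies below it, between 3.57% and 7.98%, as do Slc5a12, Aspa and Gpx3.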

How the data were processed

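The deposited matrices hold UMI counts per gene, guide and cell barcode, which the authors made with Cell Ranger 3.1.0 against mm10 without normalization; the matrices list 32285 genes and 280 guides, 34 of them nontargeting. The number of guides per barcode was read from the deposited guide calls of Cell Ranger. No source used here gives the annotation release. CPM is the count of a gene relative to all gene UMIs of the same cells. Cells, genes and gene lists of this report were chosen with earlier results of these data known.

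Cells were ranked within a library by the rule-gene share of gene UMIs, and counts were summed over licensing and other cells. Genes were described by their CPM, with a minimum of 10 in the mean of the 8 sums. Named genes were the rule genes, up to 8 genes per list with the largest folds (Mki67, Top2a, Gzmb, Gzma, Prf1 and Pdcd1 were added after their values were seen), and outside the lists the 12 largest positive and 10 largest negative folds. For the treatment fits the 5 smallest p in each direction were named, and for targets the 4 smallest in each direction with Elovl1, Slc5a12 and Pik3cd.

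Summed counts were tested with edgeR 4.0.16 (quasi-likelihood, filterByExpr, TMM) and cells per target without composition normalization, with Benjamini-Hochberg adjustment at 0.05, and DESeq2 1.42.0 as an alternative, in R 4.3.3. The interaction fit had the library as a block. Total counts set the depth given in the report, and exact 95% intervals cover counting error only. The replicate numbers of the labels join each gene expression library to its guide library and pair no treatments. The fits and the fold rule were tested on simulated data. Other tools were Python 3.11.15, numpy 2.4.6, scipy 1.17.1 and pandas 2.3.3. Alternatives were other shares of cells, other genes in the score, filters, depth, tools and leaving out libraries. A few genes of the lists are not reported here by name.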

Additional observations from a re-analysis of the deposited data

Results flagged for a closer look

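For 3 genes the change from other to licensing cells passed the edgeR test of a difference between the anti-PD-1 libraries and the IgG library, while DESeq2 called 0. With 1 IgG library the spread behind this test comes from the anti-PD-1 libraries, so a difference between treatments and one between libraries cannot be told apart. Gzmc had -1.27, Tnfsf8 -2.18 and Gzmf -1.82 on the log2 scale. The cells behind these values are few, and IgG is 1 library of lower depth than the others, with 7597 UMIs in the median licensing cell. The part of depth in the result cannot be told apart from that of treatment, and after thinning to 2000 UMIs per cell the values were -0.67 for Gzmc, -1.01 for Tnfsf8 and -0.97 for Gzmf.

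Barcodes with no called guide took no part in the comparisons. At or above the threshold of their library were 9.29% of 5770 such barcodes in anti-PD-1 replicate 1, 10.3% of 6207 in replicate 2, 7.14% of 4578 in replicate 3 and 6.92% of 7356 in IgG. Their median UMIs were 13281.5, 13008, 7630 and 4172.5, below those of single-guide cells. The part of depth in these shares was not tested.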

How the results depend on the processing

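The count of genes higher in licensing cells stayed within 1.5 times of 221 except at 2-fold, where it was 79, and it ran from 226 to 248 without 1 library. Genes lower numbered 42 with the top 20% of cells, 41 at a minimum of 5 CPM, 54 without a minimum, 5 at 2-fold, 41 in barcodes with no called guide (added after seeing the data), and 27 to 45 without 1 library, 45 being without anti-PD-1 replicate 1. No gene counted among the 221 or the 27 was counted on the other side under these alternatives.

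For treatment inside licensing cells, the top 5% of cells gave 1 call, DESeq2 1 and a term for the library pairs (anti-PD-1 replicates 1 and 2 against replicate 3 and IgG) 75, and leaving out 1 anti-PD-1 library gave 0 to 1154. The interaction gave 9 calls with the top 5%, 1 with the top 20%, 7 with Ung, Cdc6, Gins2 and Dtl as the score, 17 without a filter, 0 with DESeq2 and 15 to 101 without 1 library, 15 without replicate 1, 18 without replicate 2 and 101 without replicate 3. It reversed for Gzmc with the top 5% (0.0855), and after thinning for H2-Aa (-1.85), Cd74 (-0.15), H2-Eb1 (-1.71) and Mir142hg (-0.13). Without replicate 3 the spread in both fits came from replicates 1 and 2 alone, which share a sample name, so those counts may rest on technical spread. The cause of the reversals was not tested.

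For targets, the top 20% of cells gave 1 call, and without the replicate block 0 were called, so the block changed no call. Small values reversed for Dpm2 with the Mcm genes alone (-0.00296), Lhx5 with the other 4 genes (-0.0369) and after thinning (-0.0805), Slc6a9 (-0.0619) and Slc5a12 (0.00317) after thinning, and nontargeting guides with the top 5% (-0.121), with those 4 genes (-0.012) and with TMM (-0.000159). The licensing level differed by -8.88 to 30.6 CPM without 1 anti-PD-1 library, the negative value without replicate 1. With 3 libraries the smallest possible exact p is 0.333, so the test cannot decide there either.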

Other observations

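Barcodes with no called guide were not used by the rule, though the same genes and thresholds chose cells among them here. With each library's threshold applied to them, 316 genes were higher and 41 lower at 1.5-fold in 4 of 4 libraries, and 214 of the 221 higher and 14 of the 27 lower genes were among them. The median log2 fold of the 115 replication and G1/S genes was 1.37 there, against 1.05 in single-guide cells, and that of 29 mitosis genes was -0.10. Ccne2 had 2.36, E2f1 2.31 and Kdm5b -1.92.

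The E2F words were found in 6 of 9 promoters of the other origin licensing genes and 5 of 14 of the chromatin genes, beside 320 of 5649 genes tested (5.66%). Nucleotide synthesis genes, of which 11 of 17 were higher, had 0 of 16, and effector genes 0 of 16. At a share of 5.66%, 0 of 16 sets neither list apart from all genes. All 8 rule genes were detected in 40%, 36.3%, 29.4% and 7.39% of the licensing cells of the 4 libraries, whose median UMIs were 19639, 19804.5, 15816 and 7597.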
